A study of Triticum aestivum with 4 samples.

Results

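The tubulin and profilin genes of the wheat cytoskeleton were followed through a short heat treatment of the flag leaf. They are 5 beta-tubulin genes (tubb1, tubb2, tubb3, Tubb4 and Tubb5), the alpha-tubulin gene TUBA and the profilin gene PRO1. Members were the probe sets whose annotated gene carries one of these names as its symbol or as a synonym in the gene table. This gave 7 genes with 12 probe sets, out of 771 genes and 1273 probe sets with any gene in the annotation of the array. In the annotation tubb1 is LOC543257, tubb2 LOC543258, tubb3 LOC543473, Tubb4 LOC543260, Tubb5 LOC543261 and PRO1 LOC543315.

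Microtubules are hollow polymers of alpha- and beta-tubulin dimers. In plant cells they lie under the plasma membrane, where they guide the laying down of cellulose, and they form the spindle in dividing cells. Plants hold several beta-tubulin genes, called isotypes, whose coding sequences are much alike. Profilin is a small protein that binds monomers of actin, the subunit of the other main plant filament.

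The heat group was 2 arrays of flag leaves of wheat cultivar TAM 107 taken after 1 h at 40 °C, and the control group was 2 arrays of flag leaves kept under normal conditions. All leaves were sampled at about 10 days after pollination from field plants that had been moved to pots, and only the heat plants are described as transferred to a growth chamber, so chamber and temperature cannot be told apart. Whether the 2 arrays of a group stand for different plants is not stated; p-values here reflect only array-to-array spread, possibly technical. Signals are linear MAS5 intensities (MAS5 is the Affymetrix summary of 1 probe set's probes), and no detection calls were used.

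In heat, 5 member probe sets fell and 2 rose, out of 11 bright enough to test (limma, adjusted p under 0.05). Across the array 37.0% of the 30590 tested probe sets passed this threshold, 22.9% lower and 14.2% higher. All 5 falls belong to beta-tubulins, of which 8 probe sets were tested and 0 rose (0 also at an unadjusted p under 0.05). Both rises, of TUBA and PRO1, were small (log2 0.20 and 0.21). The median log2 fold change was -0.44 over the 8 beta-tubulin probe sets and -0.15 over all tested probe sets. In leaf RNA as a whole, fewer cells of a type and less RNA per cell cannot be told apart. Since wheat carries near-identical gene copies and isotypes resemble each other, a probe set may report several genes at once. Names ending in _s_at or _x_at mark probe sets that can match more than 1 transcript (shared), and a plain _at marks the others (unique).

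**Figure D1:**
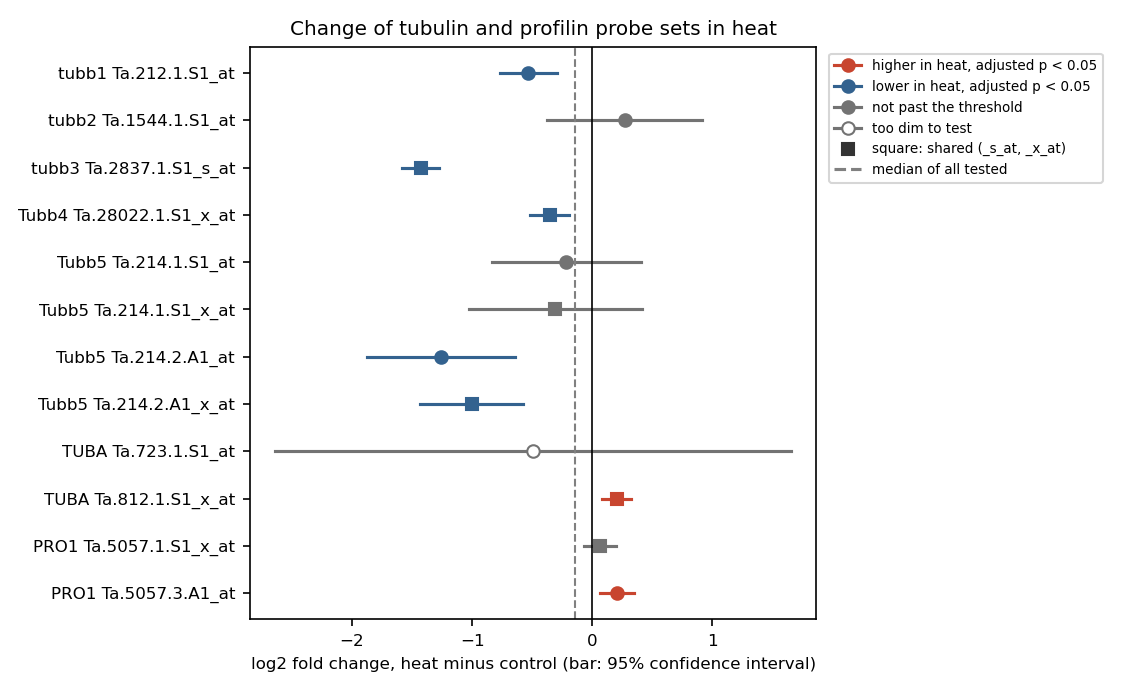
Log2 fold change, heat minus control, of each of the 12 probe sets on the horizontal axis, with its 95% confidence interval from limma; circles are unique and squares shared probe sets, colour gives the call, and the dashed line is the median of all tested probe sets (-0.15). The falls run from -0.36 (Tubb4) to -1.43 (tubb3), and the dim TUBA probe set (open circle) has an interval from -2.64 to 1.65.

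The largest fall was that of tubb3. Its shared probe set Ta.2837.1.S1_s_at read 1442 and 1518 on the heat arrays, against 3987 and 3986 on the control arrays. The groups lay far apart and replicates close together. Heat leaves thus held 37.1% of the control signal, a log2 change of -1.43 ± 0.07 SE (adjusted p = 2.97e-06, limma). Of all tested probe sets, 3.24% had a lower log2 fold change, and 1.49% of those in the same class of brightness (5 classes of equal size). The call held in each of the 14 alternatives that gave tubb3 a value, with log2 changes from -1.47 to -1.31. tubb3 has no unique probe set in the annotation, so its fall cannot be assigned to this isotype alone.

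tubb1 is represented by the unique probe set Ta.212.1.S1_at. It read 823 and 829 on the heat arrays, against 1281 and 1115 on the control arrays. Both heat values lay below both control values, and the heat arrays were closer to each other than the control arrays were. The change was log2 -0.53 ± 0.10 SE, to 69.1% of control (adjusted p = 0.00522, limma). Without control replicate 1 it was -0.43 and did not pass.

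Tubb4 was read by the shared probe set Ta.28022.1.S1_x_at, at 1927 and 2046 in heat, against 2540 and 2539 in control. The groups did not overlap, as was the case for 69.1% of all tested probe sets. It fell to 78.2% of control, or log2 -0.36 ± 0.07 SE (adjusted p = 0.00555, limma). This was the smallest of the 5 falls, and under median centring it did not pass (log2 -0.24).

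Tubb5 has 4 probe sets, and they did not give 1 answer. The annotation ties 2 of them, Ta.214.2.A1_at and Ta.214.2.A1_x_at, to one source sequence, and the other pair, Ta.214.1.S1_at and Ta.214.1.S1_x_at, to another, so each pair holds a unique and a shared probe set for the same sequence. The unique probe set of the A1 pair read 95.8 and 103 in heat, against 241 and 234 in control. It fell to 41.8% of control (log2 -1.26 ± 0.26 SE, adjusted p = 0.00776, limma). Its shared partner read 208 and 188 in heat, against 390 and 404 in control. It fell to 49.8% (log2 -1.0 ± 0.18 SE, adjusted p = 0.00422, limma). In both, replicates lay close together and the groups well apart. Leaving out control replicate 1 (log2 -1.24) or control replicate 2 (-1.28) ended the call of the unique probe set, with the size hardly moved.

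The S1 pair of Tubb5 showed no such gap. Ta.214.1.S1_at read 191 and 215 in heat, against 290 and 191 in control. Here the control arrays differed more from each other than the groups did, and the log2 change was -0.22 ± 0.27 SE. Ta.214.1.S1_x_at read 168 and 131 in heat, against 225 and 150 in control, again with overlapping groups (log2 -0.31 ± 0.31 SE). On both, control replicate 1 gave the highest value. Without it, Ta.214.1.S1_at stood at 0.084 and its partner at -0.013.

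tubb2 was the beta-tubulin gene without a called fall. Its only probe set, the unique Ta.1544.1.S1_at, read 183 and 224 in heat, against 198 and 142 in control, so that the groups overlapped. Its log2 change was 0.27 ± 0.28 SE, with a 95% interval from -0.38 to 0.92 (adjusted p = 0.487, limma). A change of either sign lies within that interval. With 1 array left out at a time the change ran between log2 0.028 ± 0.30 SE, without control replicate 2, and 0.51 ± 0.32 SE, without control replicate 1.

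**Figure D2:**
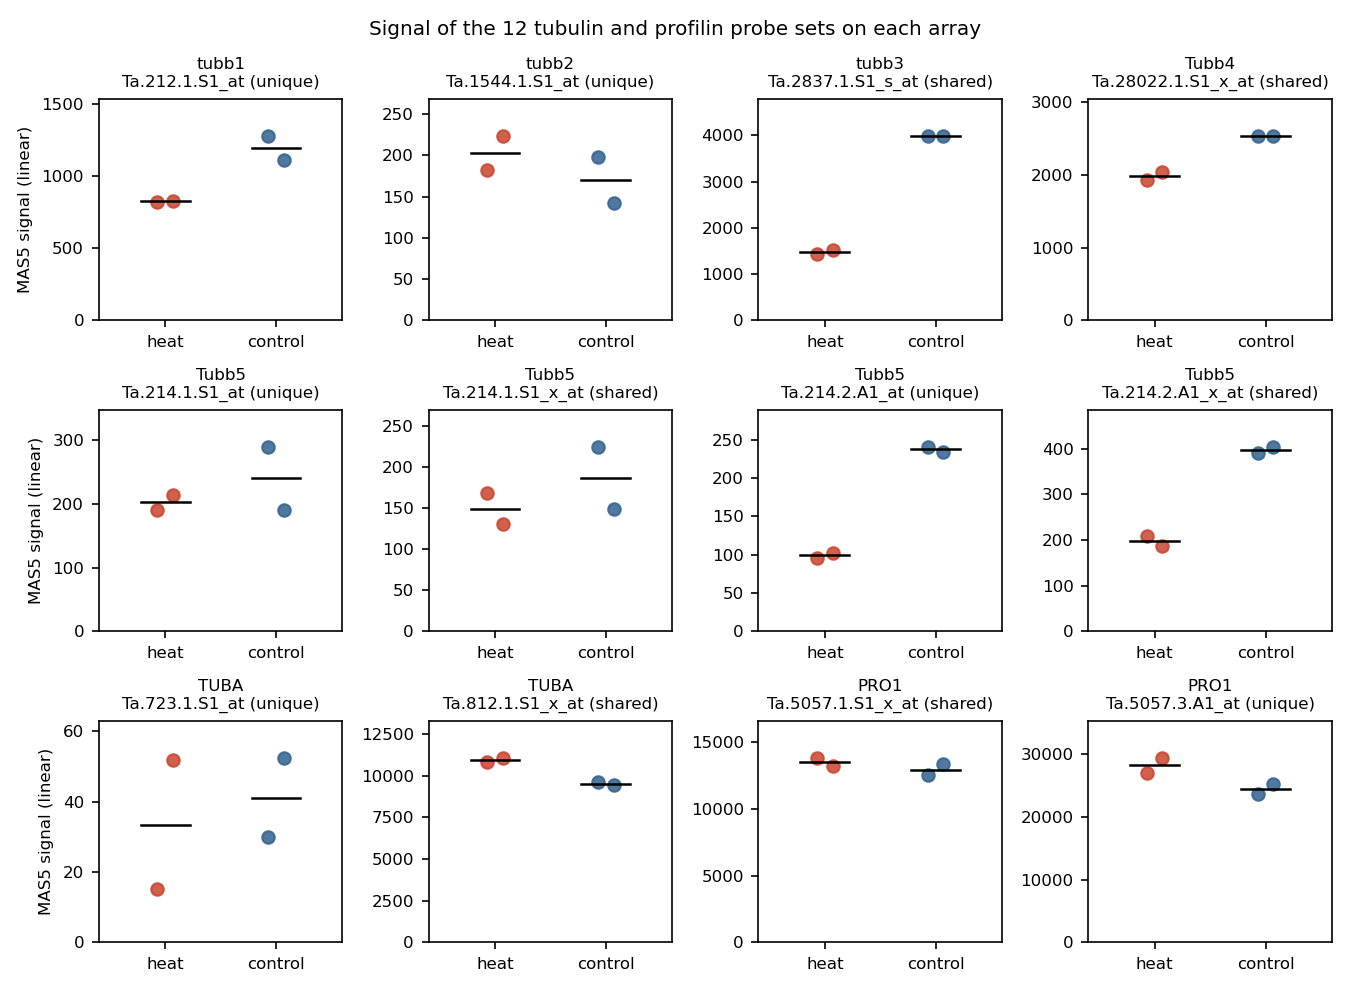
Linear MAS5 signal on each array for the 12 probe sets, 1 panel each with its own vertical axis from 0; red points are the 2 heat arrays, blue points the 2 control arrays, and bars their means. In tubb1, tubb3, Tubb4 and the A1 pair of Tubb5 both heat points lie below both control points, while in tubb2 and the S1 pair of Tubb5 the groups overlap.

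TUBA codes for alpha-tubulin, the partner of beta-tubulin in the dimer. Its shared probe set Ta.812.1.S1_x_at read 10856 and 11077 in heat, against 9614 and 9455 in control. Replicates lay close together and the groups did not overlap. The rise was 1.15-fold (log2 0.20 ± 0.05 SE, adjusted p = 0.0167, limma). It passed under median centring (0.32) and spike scaling (0.27), but not under cyclic loess (0.11) or quantile normalization, where the value was 0.0015. Without an intensity trend or without moderation it did not pass either, at an unchanged log2 value. The call was also lost without control replicate 2 and without heat replicate 2 (both at log2 0.19). The unique TUBA probe set, Ta.723.1.S1_at, read 15.3 and 51.7 in heat, against 29.8 and 52.5 in control. It lay under the brightness filter (a signal of 69.1), and in the fit without a filter its value was log2 -0.49 ± 0.92 SE. It therefore gives no information on the direction of TUBA.

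The profilin PRO1 gave small changes that hung on the scaling. Its unique probe set Ta.5057.3.A1_at read 26978 and 29355 in heat, against 23609 and 25146 in control. The groups did not overlap, but their gap was smaller than the distance between the heat arrays. On the deposited scale it rose 1.16-fold (log2 0.21 ± 0.06 SE, adjusted p = 0.0317, limma), whereas under quantile normalization it was lower in heat and past the threshold (log2 -0.16, adjusted p = 0.0244 in limma). Over its 15 alternatives the adjusted p ran from 0.0106 to 0.748. The rise did not pass without a filter, without an intensity trend or without moderation. The call was also lost under cyclic loess (0.02) and spike scaling (0.27), without control replicate 1 (0.16) and without heat replicate 2 (0.15). The shared probe set Ta.5057.1.S1_x_at read 13807 and 13180 in heat, against 12518 and 13319 in control. There the groups overlapped, at log2 0.06 ± 0.06 SE, and the sign turned under quantile normalization (-0.22, past the threshold) and cyclic loess (-0.055). The direction of profilin in heat thus depended on the scaling.

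To compare isotypes, the log2 signals of 2 probe sets were subtracted within each array, so that a shift common to an array drops out. There were 28 pairs, 7 within a gene and 21 between genes, each gene standing by its brightest tested unique probe set or, without one, its shared one. Brightness was the mean log2 signal over all 4 arrays, heat included. Tubb5 thus stood by its unique S1 probe set. Its unique A1 one, which fell, entered no pair between genes, although their control means were close (240 for S1 and 237 for A1). Heat and control arrays did not overlap in 23 of the 28. The share for pairs of other probe sets was not computed, so nothing particular to these members is read from that count. With 2 arrays against 2, an exact two-sided permutation test cannot give a p under 0.333, so no difference can pass a threshold in that test, before or after adjustment over the 28 pairs, and the differences are given as a description. The SE of each comes from its 4 values alone, so a small one can reflect replicates that happen to be near-identical. tubb3 minus Tubb4 was -0.42 and -0.43 on the heat arrays, against 0.65 and 0.65 on the control arrays. The change of tubb3 was thus 1.07 ± 0.006 SE lower on the log2 scale than that of Tubb4, and both probe sets are of the shared kind. That SE is not read as precision, since limma gave each of these 2 changes an SE of 0.07. tubb1 minus tubb3 was -0.81 and -0.87 in heat, against -1.64 and -1.84 in control, a difference in change of 0.90 ± 0.10 SE. Between tubb1 and tubb2 the difference in change was -0.80 ± 0.20 SE.

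Some neighbours in the order of change of these probe sets were closer. tubb1 and Tubb4 differed by -0.18 ± 0.11 SE, and Tubb4 and the unique S1 probe set of Tubb5 by -0.14 ± 0.30 SE with overlapping groups. TUBA and PRO1 differed by -0.006 ± 0.07 SE on the deposited scale, by 0.16 under quantile normalization and by 0.087 under cyclic loess. The largest of the 5 differences between a beta-tubulin and TUBA was that of tubb3 (-1.63 ± 0.03 SE), with tubb3 minus TUBA at -2.91 and -2.87 in heat, against -1.27 and -1.25 in control.

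Probe sets of the single gene Tubb5 differed as much as some isotypes did. The unique S1 minus the unique A1 probe set was 1.00 and 1.06 in heat, against 0.27 and -0.29 in control, a difference in change of 1.04 ± 0.28 SE. Within the A1 pair the difference was -0.25 ± 0.13 SE, and within the S1 pair 0.09 ± 0.27 SE. The 2 PRO1 probe sets differed by -0.14 ± 0.09 SE.

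Unique and shared member probe sets were also counted apart. Of 5 tested unique ones, 2 fell (tubb1 and Tubb5) and 1 rose (PRO1). Of 6 tested shared ones, 3 fell (tubb3, Tubb4 and Tubb5) and 1 rose (TUBA). Across the array 33.9% of 21303 unique and 44.2% of 9287 shared probe sets were called.

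The falls were then read against probe sets of like brightness, because the median change on this array depends on the signal. Relative to the median of its class, tubb3 stood at log2 -1.40, the A1 pair of Tubb5 at -1.02 (unique) and -0.81 (shared), tubb1 at -0.39 and Tubb4 at -0.33. TUBA and the unique PRO1 probe set stood 0.23 above their class median, which was -0.027. The S1 pair of Tubb5 lay at 0.02 and -0.07, next to its class median.

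**Figure D3:**
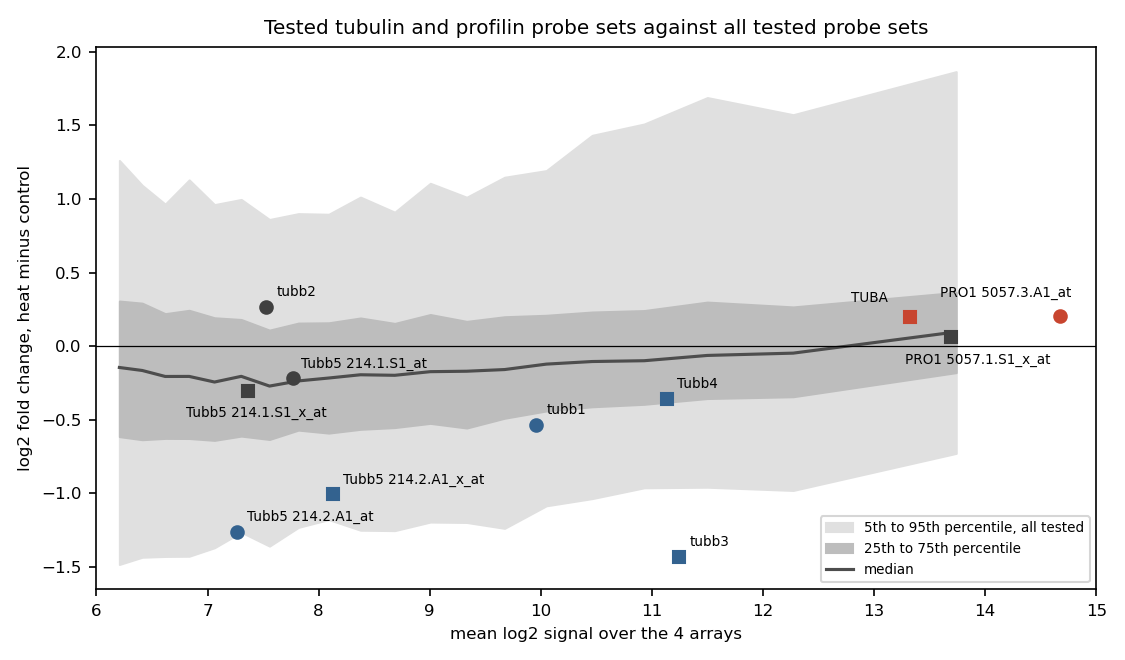
Log2 fold change, heat minus control, against the mean log2 signal of the 11 tested member probe sets; grey bands and the line give percentiles and the median of all tested probe sets in 20 bands of equal size, drawn at the mean signal of each band. Squares are shared probe sets, blue marks called falls and red called rises; only tubb3 lies well below the 5th percentile at its brightness, and the rises of TUBA and PRO1 lie no higher than the inner band.

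Under the 4 other scalings the median of the beta-tubulins stayed negative, while tubb2 stayed positive (log2 0.34 to 0.48). Of the 8 values in that median, 4 come from Tubb5. The median log2 change was -0.41 under quantile normalization, -0.35 under cyclic loess, -0.38 under spike scaling and -0.33 under median centring. Medians over all tested probe sets were -0.07, -0.02, -0.08 and -0.03 in the same order. Of the 8 beta-tubulin probe sets, 5 fell under 3 of these scalings and 4 under median centring, and 0 rose under any. Without an intensity trend in the variance model, tubb1 and Tubb4 did not pass, at unchanged log2 values. In all, 4 of the 11 tested members (36.4%) were called in the same direction under the deposited and all 4 other scalings, those of tubb1, tubb3 and the A1 pair of Tubb5. Across the array the share was 27.3%.

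**Figure D4:**
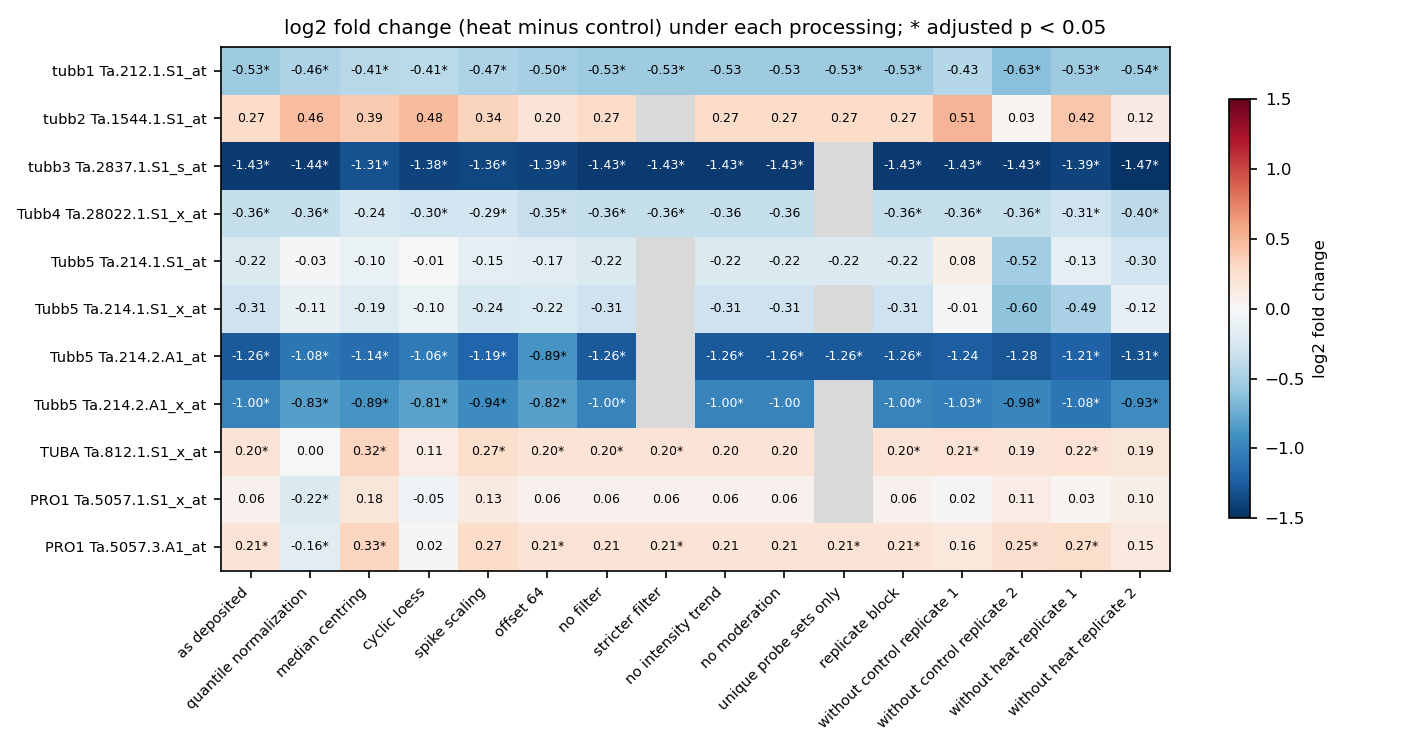
Log2 fold change, heat minus control, of the 11 tested member probe sets (rows) under the deposited values and each of 15 alternative settings (columns); colour gives size and sign, an asterisk an adjusted p under 0.05, and grey cells were not tested in that setting. tubb3 is called in every column that holds it, while the PRO1 rows change sign under quantile normalization.

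The names of these probe sets carry the number of the transcript cluster they were designed from, and 9 other probe sets share a number with Tubb4, TUBA or PRO1. The annotation gives 8 of them no gene and ties 1, Ta.812.2.A1_x_at, to a gene known only as LOC100049037, so none are members and they are named here by their IDs. They were picked by number after the data were seen. In cluster 812, which holds the shared TUBA probe set, 3 of the 4 others rose, against 14.2% of all tested probe sets. Ta.812.4.S1_at and Ta.812.4.S1_x_at carry the same number within the cluster (812.4), so they may not be separate readings. Ta.812.4.S1_at read 6728 and 6722 in heat, against 2026 and 2026 in control, a 3.32-fold rise (log2 1.73 ± 0.06 SE, adjusted p = 4.77e-07, limma). Ta.812.4.S1_x_at rose 3.23-fold and Ta.812.3.S1_x_at 2.38-fold. These calls held under every alternative that gave them a value, with folds of 3.20 to 3.60 for Ta.812.4.S1_at. The fourth, Ta.812.2.A1_x_at (LOC100049037), was at log2 -0.24 ± 0.11 SE (adjusted p = 0.140, limma). The shared TUBA probe set itself rose 1.15-fold, so probe sets of 1 cluster number gave changes from -0.24 to 1.73.

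Cluster 28022, which holds Tubb4, gave no further call. Ta.28022.3.S1_at read 1879 and 1850 in heat, against 2088 and 2103 in control (log2 -0.17 ± 0.07 SE, adjusted p = 0.0933, limma), and its shared partner was at -0.03 ± 0.06 SE. In cluster 5057, which holds PRO1, Ta.5057.2.S1_x_at was at log2 -0.10 ± 0.10 SE and a dim one was not tested.

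**Figure D5:**
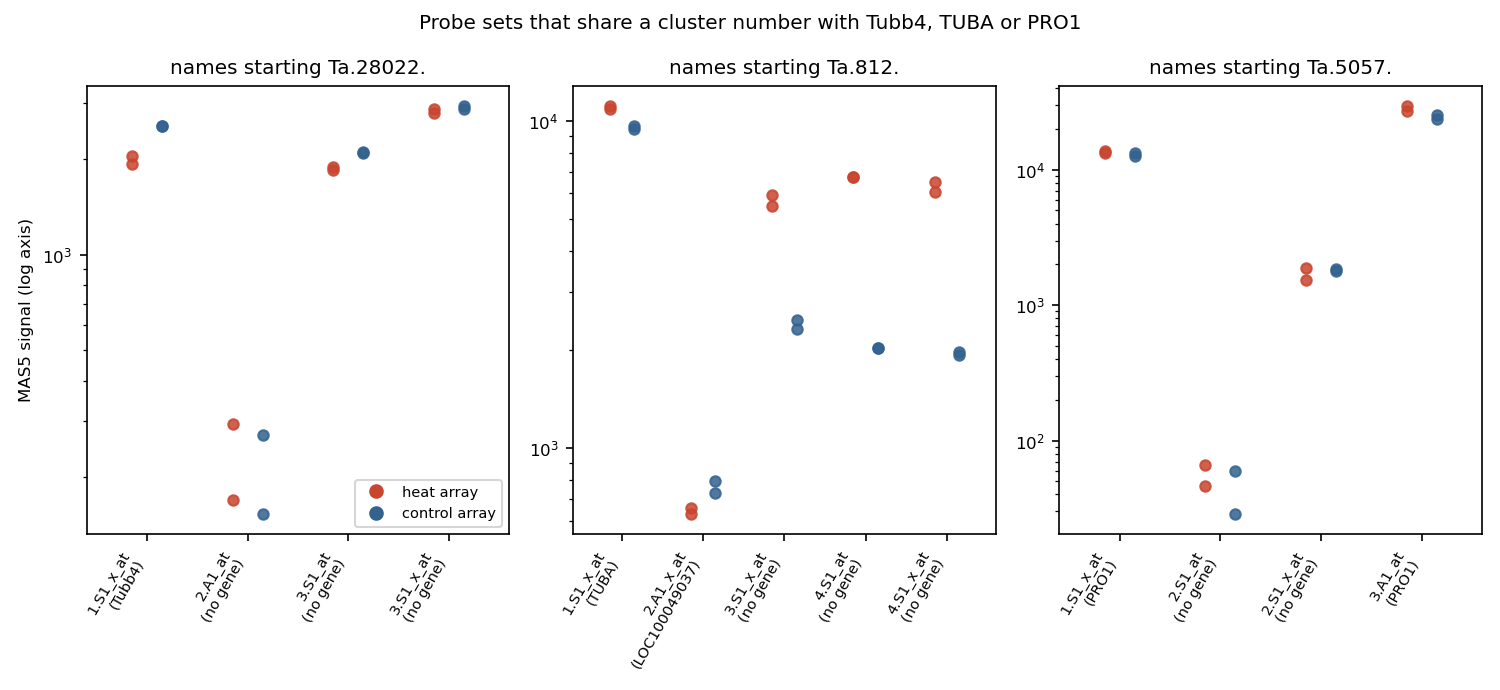
Linear MAS5 signal (log axis) on each array for the probe sets whose names start with the cluster number of Tubb4 (left), TUBA (middle) or PRO1 (right); red is heat, blue control, and brackets give the gene in the annotation or "no gene". In the middle panel 3 probe sets without a gene lie 2.38 to 3.32 times higher in heat, while the TUBA probe set itself lies 1.15 times higher.

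A list of actin, kinesin, myosin, formin, microtubule-associated and tubulin-folding names matched 0 genes in the annotation beyond the members. It was matched to symbols and synonyms only, and probe sets without an annotated gene were not searched. The match of 0 therefore does not show that such genes are absent from the array. The array's own actin controls gave the only reading used here of the filament that profilin serves. They were added to the fit after the data were seen. The actin 3′ probe set read 124 and 92.8 in heat, against 258 and 315 in control (log2 -1.41 ± 0.28 SE, adjusted p = 0.00558, limma). The 5′ probe set read 72.8 and 22.2 in heat, against 209 and 115 in control, and also fell (log2 -1.95 ± 0.63 SE, adjusted p = 0.0456, limma). That call lay close to the threshold, and the heat value of 22.2 was below the signal of the brightness filter (69.1). The 2 middle probe sets did not follow, with 379 and 298 in heat against 334 and 186 in control on one, and 263 and 274 in heat against 177 and 203 in control on the other (adjusted p = 0.297 and 0.105, limma). Along actin, the 3′ and 5′ probe sets thus fell, while the middle ones had positive log2 values (0.43 and 0.50) without a call. By the same kind of name match, the cell wall list found 1 gene in the annotation, XTH, a xyloglucan endotransglucosylase. XTH read 144 and 104 in heat, against 175 and 136 in control, with overlapping groups.

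Among 64 other tested genes with a name, the 5 whose probe sets came closest to the mean beta-tubulin pattern over the 4 arrays were GSTZ1 (a glutathione transferase), rbcL (the Rubisco large subunit), H2A-3 (a histone), GAPN (a glyceraldehyde-3-phosphate dehydrogenase) and FBP (a fructose bisphosphatase), at Euclidean distances of 0.18 to 0.25 on the log2 scale. That mean pattern was -0.32 and -0.29 in heat, against 0.42 and 0.19 in control, each probe set centred on its own mean. With 4 arrays such likeness says little more than a similar fall, here log2 -0.80 for that rbcL probe set and -0.43 to -0.39 for the others. The brightest rbcL probe set went the other way (log2 0.72, adjusted p = 0.00013 in limma), so the likeness is that of 1 probe set and not of the gene. The H2A-3 probe set did not pass (adjusted p = 0.20, limma).

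Leaf markers were bright, with each gene standing by its brightest probe set. Those of the 4 leaf genes matched (PsbO, PsbP, PRK and rbcL) lay at about percentile 99.9 of brightness or higher. Of these 4, 3 were higher in heat, PsbO (log2 0.35), PsbP (0.34) and rbcL (0.72), and PRK was at 0.15 with no call. Across the array 14.2% of tested probe sets were called higher. In the brightest of the 20 bands the median log2 change was 0.098 and the 75th percentile 0.37, so PsbO and PsbP lay within the usual range there. These 4 genes have 32 probe sets in the annotation, and only the brightest of each is counted here. The summed signal of the 4 leaf probe sets was 209610 and 203670 in heat, against 149580 and 166000 in control. Its part in the beta-tubulin falls was not tested. Of 11 grain genes 3 were bright enough to test and 0 were called by limma, with 0 also at an unadjusted p under 0.05. The summed grain signal was 8364 and 8303 in heat, against 8270 and 8483 in control, nearly all of it from ALP. ALP was listed by its name alone, and whether it is a grain gene was not tested. The ALP probe set lay at percentile 97.8 of brightness, so this grain-listed gene was bright as well. Names for floral genes matched none. Both heat-response checks, hsp16.9A and FKBP70, were higher in heat (log2 6.65 and 2.79).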

How the data were processed

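RNA of 4 flag-leaf samples was hybridised to Affymetrix wheat arrays. The values deposited by the authors are linear signal intensities; per the submitters' processing notes they came from MAS5 in Affymetrix Expression Console 1.1; the settings used were not stated there. Of 61290 probe sets, 111 AFFX controls were left out. Log2 intensities were not normalised further. A mean log2 signal of 6.11 or more (the median of the other 61179) was required, which left 30590 probe sets. limma 3.58.1 under R 4.3.3 compared heat with control (two-sided, eBayes with an intensity trend, 2 residual and 5.45 prior degrees of freedom), adjusting by Benjamini-Hochberg over all of them at a threshold of 0.05. The fit was tested on simulated data. Spike scaling used 24 polyA control probe sets; the stricter filter was the 75th percentile. The number of arrays limits the precision.

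Gene names came from the platform annotation, updated by gene ID through the RefSeq table of IWGSC CS RefSeq v2.1; the array's build is not given, so no coordinates are printed. All member probe sets were named. List genes were matched by name, since that table holds no descriptions. Members, lists and tests were chosen with earlier results of these data known. Levels of member probe sets were compared only within a gene, to choose the probe set that stood for it in pairs between genes. Brightness also served for the filter, the brightness classes and bands, and the marker check, where each list gene stood by its brightest probe set.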

Additional observations from a re-analysis of the deposited data

How the results depend on the processing

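Across the array 11332 probe sets were called, 2593 without moderation and 6998 with unique probe sets only, where fewer were tested (21303). Leaving out 1 array gave 7628 to 10665. Rises made up 38.3% of calls, and 50.4% with median centring, 49.2% without moderation and 48.2% with cyclic loess. The 2 member rises numbered 0 under quantile normalization, cyclic loess, no intensity trend and no moderation, 1 with spike scaling, no filter and unique probe sets only, and 0 to 2 with 1 array left out. The 5 member falls numbered 3 under the stricter filter (6 members tested) and with no intensity trend, 2 with no moderation and with unique probe sets only (5 tested), and 3 to 5 with 1 array left out. Where still tested, the falls lost were tubb1 and Tubb4 (no intensity trend, no moderation) and the shared A1 probe set of Tubb5 (no moderation). Tubb4 was also lost with median centring. The unique A1 probe set of Tubb5 was lost whichever control array was left out, and tubb1 without control replicate 1. Signs turned for both PRO1 probe sets under quantile normalization (log2 -0.22 and -0.16), for the shared one under cyclic loess (-0.055), and for Tubb5 Ta.214.1.S1_at without control replicate 1 (0.084; -0.52 without control replicate 2). Of 154 recomputed member changes, 128 kept sign and side of the threshold, 22 lost the call and 4 turned. The 23 separated pairs numbered 21 to 23 under other scalings and the offset of 64, and 24 to 27 with 1 array left out, where 3 arrays separate more easily. Of 252 recomputed differences between pairs, 28 moved by more than their spread, all under quantile normalization, cyclic loess or the offset. With the replicate number as a block the counts of member calls stayed at 2 and 5, of 11603 in all; deviations of same-numbered arrays correlated at 0.011 over tested probe sets, so the numbers are not taken to pair the samples. The cause of these shifts was not tested. Signal over background is unknown without detection calls, which limits the probe sets of tubb2, Tubb5 and the dim one of TUBA.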
